A study of Mus musculus with 30 samples.

Results

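Transcripts of 9 carriers of amino acids, taurine and creatine were followed with age in brain endothelial cells of the mouse. The genes were taken by name for what they carry, with earlier results of these data known, from a count table of 48795 genes, and all 9 were in the table and passed the filter on low counts, among 16844 genes tested. The brain takes its amino acids from blood through carriers in the 2 membranes of the endothelial cell, since tight junctions close the path between the cells. Slc7a5 (LAT1) is the exchanger for large neutral amino acids such as leucine and phenylalanine and reaches the membrane bound to the glycoprotein encoded by Slc3a2 (4F2hc, CD98). Slc7a10 (Asc-1) uses the same glycoprotein and carries small neutral amino acids, glycine and D-serine included. Slc7a1 (CAT1) and Slc7a3 (CAT3) carry arginine, lysine and ornithine, and Slc38a3 (SNAT3) and Slc38a5 (SNAT5) move glutamine together with sodium. Slc6a6 takes up taurine, an osmolyte, and Slc6a8 takes up creatine, which in its phosphorylated form stores high-energy phosphate, both with sodium and chloride.

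The libraries came from primary brain endothelial cells of wild-type mice without treatment, aged 2, 6, 12, 18 or 24 months. Each age had 6 libraries, 3 of males and 3 of females, 30 in all, and the series describes them as biological replicates. The series asked how endothelial expression shifts with age once sex is taken into account, next to barrier integrity and brain haemorrhage. The sources used here do not give how the cells were isolated, whether a library holds 1 mouse or several, or which libraries were read on which instrument, although 24 were read from both ends and 6 from 1 end on another machine. Each age also has 6 libraries, and whether the machine coincides with an age is not known. The machine was in no fit, so its part in the differences between ages was not tested. The 2-month libraries served as the reference for the older ages. In bulk libraries of this kind, fewer cells of a type and less RNA per cell cannot be told apart.

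Bases upstream of RefSeq starts of the genes that were lower at older ages are shown so that these promoters can be read beside the values. RefSeq promoters (GRCm38.p6) were matched for 4 of the 9 genes, Slc38a5, Slc7a10, Slc3a2 and Slc7a1, with 5 promoters in all, and the other 5 genes are Slc7a5, Slc7a3, Slc38a3, Slc6a6 and Slc6a8. Each stretch is written 5′ to 3′ on the gene's strand and holds only bases outside annotated exons within 250 bases upstream of the RefSeq start. Matches of GGGCGG on either strand (the GC box) and of CACGTG (the E-box, the same on both strands) are in capitals. They are Slc38a5 at chrX:8271261-8271380 on the plus strand, Slc7a10 at chr7:35186135-35186384 on the plus strand, Slc3a2 at chr19:8713898-8713960 on the minus strand, and the first promoter of Slc7a1 at chr5:148399905-148400154 on the minus strand. The stretches of Slc38a5 and Slc3a2 lie inside the annotated spans of these genes (chrX:8271133-8280179 and chr19:8706882-8723369). Their RefSeq starts are thus internal ones, not the outermost annotated starts.
Slc38a5: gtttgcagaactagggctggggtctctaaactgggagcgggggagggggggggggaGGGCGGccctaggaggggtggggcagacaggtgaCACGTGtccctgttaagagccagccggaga
Slc7a10: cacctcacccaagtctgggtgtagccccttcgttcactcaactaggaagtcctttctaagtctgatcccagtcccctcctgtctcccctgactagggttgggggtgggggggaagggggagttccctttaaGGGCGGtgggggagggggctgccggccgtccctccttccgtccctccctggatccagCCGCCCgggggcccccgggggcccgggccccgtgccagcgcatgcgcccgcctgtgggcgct
Slc3a2: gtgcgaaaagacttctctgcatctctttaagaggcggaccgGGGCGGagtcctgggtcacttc
Slc7a1: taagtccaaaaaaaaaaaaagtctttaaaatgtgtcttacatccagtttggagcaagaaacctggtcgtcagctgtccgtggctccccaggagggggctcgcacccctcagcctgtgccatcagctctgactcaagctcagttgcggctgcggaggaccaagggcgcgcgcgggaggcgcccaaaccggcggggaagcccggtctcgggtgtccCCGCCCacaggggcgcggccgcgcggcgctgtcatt
The GC box began 64 bases upstream of the RefSeq start in Slc38a5, 119 and 62 bases upstream in Slc7a10, 22 bases upstream in Slc3a2 and 36 bases upstream in Slc7a1. The E-box of Slc38a5 began 30 bases upstream. The second Slc7a1 promoter held neither motif. Of 32851 RefSeq promoters, 32.7% held GGGCGG and 6.02% held CACGTG in these 250 bases. CCAAT was in 33.8% and TGATGNAA, the core of the site bound by Atf4 with a C/EBP partner, in 3.45%. Neither was found in the 5 promoters of these genes.

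The libraries held 24140980 to 50464366 counts in genes. Levels are given as CPM, counts scaled to the same library total with TMM factors, and a count of 0 would have allowed up to 3 counts, or 0.0594 to 0.124 CPM, a limit that covers counting error only. No library came near this limit for any of the 9 genes, whose lowest count was 72, for Slc7a10. Endothelial markers were abundant, with the glucose transporter gene Slc2a1 at a mean of 4573 CPM and the 12 markers summing to 18206 to 25315 CPM per library, none of them at 0 in any library. Neuronal markers summed to 3.19 to 12.1 CPM, and 8 of the 9 were at 0 in at least 1 library. Astrocyte markers summed to 292.5 to 1587 CPM, microglial markers to 177 to 1328 CPM, and choroid plexus and ependyma markers to 161 to 6975 CPM, with none at 0 in any library. Over all genes, 1843 had a slope on age that passed (edgeR, adjusted p under 0.05), of which 52.3% were higher at older ages, against 69.6% of 1732 when libraries were scaled by their totals alone. Unless another test is named, adjusted p-values come from edgeR's quasi-likelihood test with the Benjamini-Hochberg adjustment over the genes tested. These were 16844 in the main fits, and fits with other libraries or filters set their own number. A slope is the fitted log2 change over the 22 months from 2 to 24.

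Set side by side per kilobase of exon, the carriers fell into abundant and scarce ones. Slc7a5 led with 587 ± 152 CPM per kilobase (SD, n = 30) and Slc3a2 followed with 453 ± 73.1. Slc6a6 had 246 ± 65.4, Slc38a5 210.3 ± 93.6, Slc38a3 134.6 ± 17.3 and Slc7a1 35.96 ± 6.55 CPM per kilobase. The scarce ones were Slc7a10 with 6.76 ± 4.68, Slc7a3 with 5.08 ± 2.13 and Slc6a8 with 2.17 ± 0.511 CPM per kilobase. The ranges of all neighbours in this order overlapped over the 30 libraries except those of Slc38a3 (102 to 181) and Slc7a1 (20.1 to 47.6). Together the 9 genes summed to 0.792 ± 0.11% of the TMM-scaled library total in the 2-month libraries (SD, n = 6 per age). This sum was 0.767 ± 0.06% in the 6-month and 0.656 ± 0.0896% in the 12-month libraries. It was 0.769 ± 0.089% in the 18-month and 0.765 ± 0.0581% in the 24-month libraries. Of that sum, Slc6a6 made up 19.4% in the 2-month, 25.0% in the 6-month, 26.6% in the 12-month, 34.9% in the 18-month and 33.4% in the 24-month libraries.

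**Figure D1:**
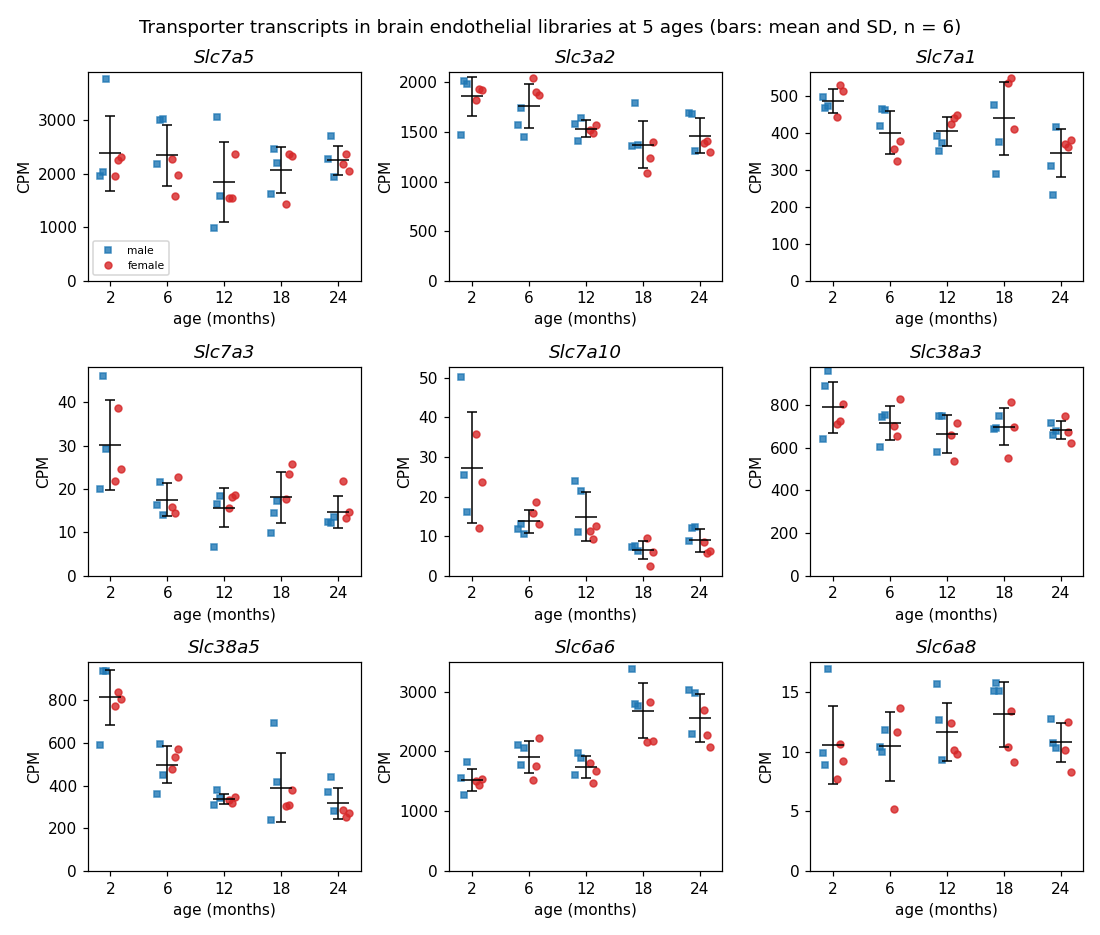
Level of each of the 9 transcripts in CPM (vertical axis, from 0) by age in months (horizontal axis), 1 point per library, squares for males and circles for females, with the mean and SD of the 6 libraries of each age. Slc38a5 lay between 253 and 441 CPM at 24 months and between 588 and 939 CPM at 2 months, and Slc6a6 lay between 2074 and 3034 CPM at 24 months and between 1267 and 1825 CPM at 2 months.

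The glutamine carrier Slc38a5 fell, and most of its difference from 2 months was present at 12 months. It lies on chromosome X (8271133 to 8280179, plus strand, GRCm38). Its level ranged from 588 to 939 CPM (median 822) at 2 months, 359 to 594 CPM (median 506) at 6 months, 309 to 378 CPM (median 336) at 12 months, 239 to 693 CPM (median 345) at 18 months and 253 to 441 CPM (median 285) at 24 months. All 6 libraries of 24 months, and all 6 of 12 months, lay below all 6 of 2 months. At 24 months it stood at 0.387 of the 2-month level (-1.37 ± 0.18 log2, SE, adjusted p = 5.5e-06). The slope over 22 months was -1.20 ± 0.19 log2 (adjusted p = 5.85e-05), and the path departed from a straight line (adjusted p = 0.0156). At 6 months the change against 2 months was -0.70 log2 and at 12 months -1.27 log2, both of which passed, while 24 months differed from 12 months by -0.10 ± 0.18 log2 (adjusted p = 0.846). The one library of 18 months at 693 CPM was male replicate 2, and the other 5 of that age had 239 to 417 CPM. That library had the highest venous marker score of the 30 libraries (6.85, mean log2 CPM over 8 genes). Its arterial marker score was also the highest (6.45, over 9 genes). With the venous score as a covariate the slope was -1.64 ± 0.19 log2 (adjusted p = 6.43e-06). Without the 2-month libraries the slope was -0.71 log2 (adjusted p = 0.057), and in the 15 male libraries alone -0.94 log2 (adjusted p = 0.148).

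Its relative Slc38a3 (chromosome 9, 107650634 to 107669530, minus strand) did not pass. It ranged from 643 to 958 CPM (median 766) at 2 months, 606 to 829 CPM (median 725) at 6 months, 539.6 to 748 CPM (median 687) at 12 months, 551 to 814 CPM (median 694) at 18 months and 623 to 747 CPM (median 677) at 24 months. The groups overlapped at every age. Its slope was -0.17 ± 0.09 log2 (adjusted p = 0.25, 95% interval -0.36 to 0.02). It passed with endothelial markers as a covariate (-0.25 log2, adjusted p = 0.0427).

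The taurine transporter Slc6a6 was the one gene of the 9 that rose. It lies on chromosome 6 (91684053 to 91759066, plus strand). Its level ranged from 1267 to 1825 CPM (median 1519.5) at 2 months, 1521 to 2233 CPM (median 1915) at 6 months, 1467 to 1967 CPM (median 1734) at 12 months, 2163 to 3388 CPM (median 2775) at 18 months and 2074 to 3034 CPM (median 2490.3) at 24 months. All libraries of 18 and of 24 months lay above every library of 2 months and of 12 months. The level at 24 months was 1.67 times that at 2 months (0.74 ± 0.11 log2, adjusted p = 2.63e-05), and the slope was 0.77 ± 0.12 log2 (adjusted p = 5.85e-05). Most of the difference lay between 12 and 18 months. Against 2 months the change was 0.32 ± 0.11 log2 at 6 months (adjusted p = 0.0571) and 0.18 ± 0.11 log2 at 12 months (adjusted p = 0.41), neither of which passed. The 18-month libraries exceeded the 12-month ones by 0.63 ± 0.11 log2 (adjusted p = 5.07e-04), and 24 months differed from 18 months by -0.07 ± 0.11 log2 (adjusted p = 0.84). The 18-month libraries also had the highest share of reads outside genes, 10.35 ± 2.13% against 6.03 ± 0.676% at 12 months (SD, n = 6 each). With that share as a covariate the slope of Slc6a6 was 0.58 ± 0.13 log2 (adjusted p = 0.00896), and without the 18-month libraries it was 0.64 ± 0.11 log2 (adjusted p = 9.02e-04). The path departed from a straight line (adjusted p = 0.0197). The slope passed in the 15 male libraries alone (0.88 log2, adjusted p = 0.015) and in the 15 female ones alone (0.65 log2, adjusted p = 0.0331). Its exons share 117 of 8457 bases with Gm44981, a gene on the other strand with a mean of 1.14 CPM.

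The creatine transporter Slc6a8 (chromosome X, 73673150 to 73682502, plus strand) was scarce at every age. It ranged from 7.67 to 16.9 CPM (median 9.56) at 2 months, 5.18 to 13.7 CPM (median 11.03) at 6 months, 9.29 to 15.7 CPM (median 11.3) at 12 months, 9.17 to 15.8 CPM (median 14.2) at 18 months and 8.30 to 12.7 CPM (median 10.5) at 24 months. The groups overlapped at every age. Its slope was 0.16 ± 0.17 log2 (adjusted p = 0.594, 95% interval -0.19 to 0.51).

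Among the carriers that bind Slc3a2, the small neutral amino acid exchanger Slc7a10 had the steepest slope. It lies on chromosome 7 (35186385 to 35201114, plus strand). Its level ranged from 12.0 to 50.3 CPM (median 24.6) at 2 months, 10.4 to 18.6 CPM (median 13.1) at 6 months, 9.24 to 23.9 CPM (median 11.9) at 12 months, 2.45 to 9.58 CPM (median 6.77) at 18 months and 5.69 to 12.3 CPM (median 8.61) at 24 months. All 6 libraries of 18 months lay below all 6 of 2 months, and 4 of the 6 libraries of 24 months did. At 24 months it stood at 0.323 of the 2-month level (-1.63 ± 0.30 log2, adjusted p = 4.33e-04), and its slope was -1.66 ± 0.29 log2 (adjusted p = 3.04e-04). The highest of all its values, 50.3 CPM, was that of 2-month male replicate 1. Without this library or any other single one the slope stayed between -1.77 and -1.45 log2 and passed.

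Slc7a10 is also known from astrocytes and neurons, and some markers of astrocytes and of choroid plexus and ependyma were lower beside it. No slope of the 9 neuronal markers passed, while 4 of 8 pericyte and 2 of 6 smooth muscle markers rose. Of 12 astrocyte markers 5 fell and 1 rose, and they summed to 292.5 to 739 CPM at 24 months and 561 to 1587 CPM at 2 months. Of 7 choroid plexus and ependyma markers 4 fell and none rose, and they summed to 631 to 2280 CPM at 24 months and 921 to 4324 CPM at 2 months. The library at 50.3 CPM had the highest score on both lists (6.33 and 6.16, mean log2 CPM) and on microglial markers (7.08). It was also the highest on neuron (0.487), oligodendrocyte (5.39), oligodendrocyte precursor (2.73) and fibroblast (6.41) markers. With astrocyte markers as a covariate the slope of Slc7a10 was -1.40 ± 0.32 log2 (adjusted p = 0.00502), and with choroid plexus and ependyma markers it was -1.02 ± 0.19 log2 (adjusted p = 0.001). In the 15 male libraries alone it was -1.41 log2 (adjusted p = 0.109). Its exons share 377 of 2111 bases with Lrp3 on the other strand, and reads over both genes were counted for neither. Lrp3 averaged 7.92 CPM and had a slope of 1.09 log2 (adjusted p = 0.00284).

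**Figure D2:**
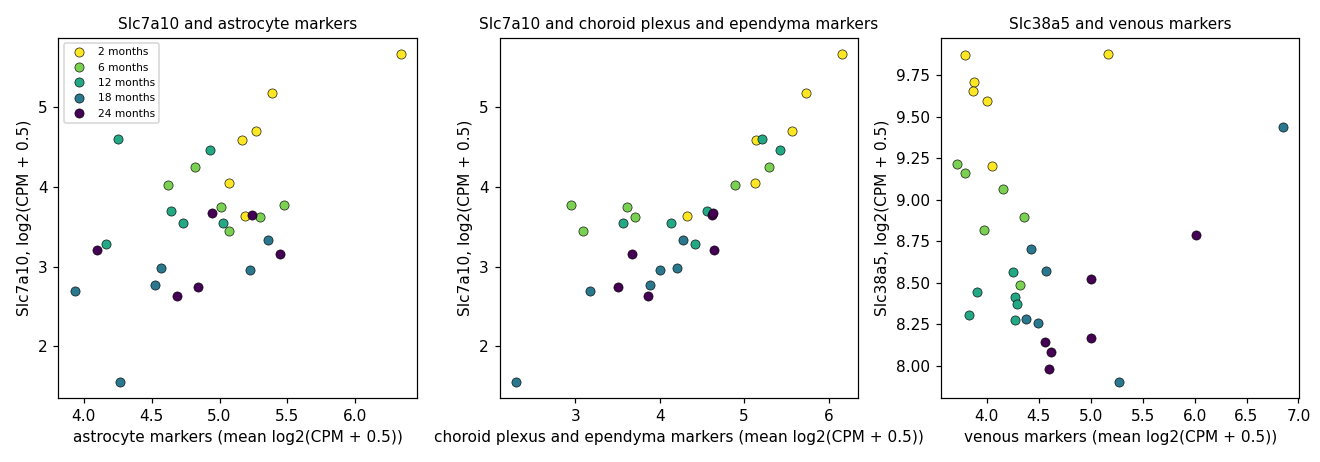
Levels per library as log2(CPM + 0.5), with Slc7a10 against astrocyte markers (left) and against choroid plexus and ependyma markers (middle) and Slc38a5 against venous markers (right), each marker axis the mean log2(CPM + 0.5) of the list and each point 1 library coloured by age. The 2-month library with the highest Slc7a10 has scores of 6.33 and 6.16, and the 18-month library at the far right of the third panel has a venous score of 6.85.

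The shared glycoprotein Slc3a2 fell and its main partner Slc7a5 did not pass. Slc3a2 (chromosome 19, 8706882 to 8723369, minus strand) ranged from 1473 to 2015 CPM (median 1929) at 2 months, 1446 to 2041 CPM (median 1811) at 6 months, 1407 to 1639 CPM (median 1547) at 12 months, 1084 to 1796 CPM (median 1362) at 18 months and 1295 to 1687 CPM (median 1402) at 24 months. All 6 libraries of 24 months lay below the mean of 2 months, but the groups overlapped, the lowest 2-month value being that of male replicate 1. The slope was -0.41 ± 0.10 log2 (adjusted p = 0.00561), and 24 months stood at 0.786 of 2 months (-0.35 ± 0.11 log2, adjusted p = 0.0367). The difference between 24 and 2 months was near the threshold. It no longer passed in 9 of the 12 fits that left out 1 library of these ages (without any of 2-month replicates 2 to 6 or 24-month replicates 3 to 6), where it was -0.35 to -0.31 log2. The share of reads outside genes averaged 5.06% in the 2-month, 5.69% in the 6-month, 6.03% in the 12-month, 10.35% in the 18-month and 7.19% in the 24-month libraries, and the 18-month libraries also had the lowest mean of Slc3a2 (1374 CPM). Once this share was made a covariate, the slope was -0.17 ± 0.09 log2 (adjusted p = 0.411), and without the 18-month libraries it was -0.36 ± 0.09 log2 (adjusted p = 0.0235).

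Slc7a5 (chromosome 8, 121881150 to 121907694, minus strand) spread widely within ages. It ranged from 1950.4 to 3764 CPM (median 2141) at 2 months, 1586 to 3021 CPM (median 2233) at 6 months, 977 to 3053 CPM (median 1561) at 12 months, 1436 to 2462 CPM (median 2262) at 18 months and 1930 to 2704 CPM (median 2226.5) at 24 months. The groups overlapped throughout. Its slope was -0.11 ± 0.18 log2 (adjusted p = 0.74, 95% interval -0.47 to 0.25). Per kilobase, the ratio of Slc7a5 to Slc3a2 averaged 1.22 ± 0.307 in the 2-month libraries (SD, n = 6 per age), 1.30 ± 0.444 in the 6-month, 1.16 ± 0.519 in the 12-month, 1.44 ± 0.251 in the 18-month and 1.47 ± 0.11 in the 24-month libraries, with overlapping ranges.

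Of the carriers for arginine and lysine, the scarce Slc7a3 fell and the more abundant Slc7a1 was lower at 24 months. Slc7a3 (chromosome X, 101079210 to 101086020, minus strand) ranged from 19.9 to 46.1 CPM (median 26.9) at 2 months, 14.04 to 22.9 CPM (median 16.1) at 6 months, 6.70 to 18.7 CPM (median 17.4) at 12 months, 9.87 to 25.8 CPM (median 17.4) at 18 months and 12.1 to 21.9 CPM (median 13.5) at 24 months. Against 2 months it was lower at each later age, with log2 changes of -0.79 at 6 months, -0.96 at 12 months, -0.77 at 18 months and -1.06 ± 0.23 (adjusted p = 0.00304) at 24 months, all of which passed. Its slope was -0.82 ± 0.22 log2 (adjusted p = 0.0138). No pair of later ages differed past the threshold, and without the 2-month libraries the slope was -0.27 log2 (adjusted p = 0.529). With capillary markers as a covariate, which summed to 7018 to 7996 CPM at 24 months and 9335 to 10433 CPM at 2 months, it was -0.28 log2 (adjusted p = 0.44).

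Slc7a1 (chromosome 5, 148327410 to 148399904, minus strand) ranged from 441 to 528 CPM (median 484) at 2 months, 323 to 464 CPM (median 397) at 6 months, 350.2 to 448 CPM (median 407) at 12 months, 289 to 548 CPM (median 442) at 18 months and 232 to 414 CPM (median 365) at 24 months. All 6 libraries of 24 months lay below all 6 of 2 months. It stood there at 0.707 of the 2-month level (-0.50 ± 0.13 log2, adjusted p = 0.0134), and its slope was -0.33 ± 0.12 log2, which did not pass (adjusted p = 0.0759). The slope passed without 6-month replicate 5 (-0.37 log2) and without 18-month replicate 4 (-0.36 log2) or 5 (-0.37 log2), and with DESeq2 (-0.35 log2, adjusted p = 0.0408). With capillary markers as a covariate it was -0.03 ± 0.14 log2 (adjusted p = 0.901). The difference at 24 months was -0.43 log2 (adjusted p = 0.0524) with astrocyte markers as a covariate.

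Read together against the whole table, 5 of the 9 slopes passed, which is to be set beside 10.9% of all genes. Of these, 4 were lower, where 5.22% of all genes were, and 1 was higher, where 5.72% were. The median slope of the 9 was -0.33 log2, and that of all genes tested was 0.03 log2. Against 2 months, 3 passed at 6 months (8.76% of all genes), namely Slc38a5, Slc7a3 and Slc7a10, and 2 at 12 months (2.94%), Slc38a5 and Slc7a3. At 18 months 5 passed (18.8%), these 3 and Slc3a2 as lower and Slc6a6 as higher, and at 24 months 6 passed (8.35%), with Slc7a1 added. The count of genes whose 24- and 2-month libraries did not overlap was 3 of the 9, Slc7a1, Slc38a5 and Slc6a6, and 6.5% of all genes. These comparisons share the 2-month libraries.

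**Figure D3:**
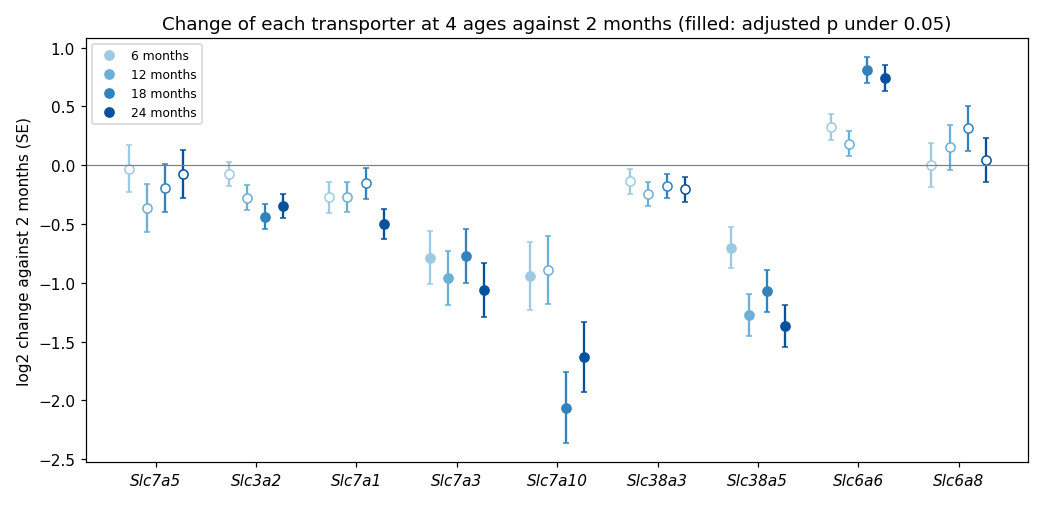
Fitted log2 change of each transcript at 6, 12, 18 and 24 months (left to right, light to dark) against 2 months, with its SE, filled where the adjusted p was under 0.05. Slc38a5 sits at -0.70, -1.27, -1.07 and -1.37 log2, all filled, and Slc6a6 is filled at 18 and 24 months (0.81 and 0.74 log2).

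Later ages were also compared with each other. At 24 months against 6 months, Slc38a5 was lower (-0.67 ± 0.18 log2, adjusted p = 0.0372) and Slc6a6 higher (0.42 ± 0.11 log2, adjusted p = 0.0349), 2 of 9, with 2.91% of all genes. At 18 months against 6 months Slc6a6 was higher and Slc3a2 and Slc7a10 lower, 3 of 9, with 24.6% of all genes. At 18 months against 12 months, where 13.2% of all genes passed, Slc6a6 was higher and Slc7a10 lower (-1.17 ± 0.30 log2, adjusted p = 0.00965). At 24 months against 12 months Slc6a6 alone passed (0.56 ± 0.11 log2, adjusted p = 0.0043), with 2.04% of all genes. None of the 9 passed in edgeR at 12 months against 6 months (1 at an unadjusted p under 0.05, with 1.89% of all genes called) or at 24 months against 18 months (1 at an unadjusted p under 0.05, with 1.26% called). DESeq2 called Slc38a5 as lower in the first of these comparisons and 0 of the 9 in the second. A path that departed from a straight line was found for Slc7a10 (adjusted p = 0.0465), Slc38a5 and Slc6a6, 3 of 9, and for 17.7% of all genes.

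Neither sex nor its product with age passed for any of the 9 in edgeR or DESeq2. Slc6a6 was 0.17 ± 0.07 log2 higher in males than in females (unadjusted p = 0.0172, adjusted p = 0.532) and Slc6a8 0.26 ± 0.12 log2 higher (unadjusted p = 0.0422, adjusted p = 0.616), and 0.101% of all genes passed. For sex by age, 0% of all genes passed, 916 genes had an unadjusted p under 0.05 in edgeR, and 1 of the 9 did. That one was Slc3a2, whose slope was 0.42 ± 0.18 log2 higher in males than in females (adjusted p = 0.876). At 24 months Slc3a2 averaged 1558 ± 216 CPM in males and 1366.5 ± 62.7 CPM in females (SD, n = 3 each), and at 2 months 1823 ± 303 CPM in males and 1895 ± 59.5 CPM in females.

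Libraries of the same age and sex also varied in these genes. Over 36 pairs of the 9, none of the correlations of deviations from the age and sex means passed after adjustment (permutation test within age and sex with 100000 resamples, two-sided, n = 30, lowest adjusted p = 0.0608 for Pearson's r and 0.0794 for Spearman's rho). Slc3a2 and Slc38a5 had a Pearson's r of 0.70 and a Spearman's rho of 0.62 (p = 0.00676 and 0.0112, adjusted p = 0.0608 and 0.081), and r was 0.63 without the 2 libraries farthest from the median. Slc7a5 and Slc38a3 had an r of 0.66 and a rho of 0.62 (p = 0.00598 and 0.00692, adjusted p = 0.0608 and 0.0794). Their r was 0.65 without the 2 libraries farthest from the median of Slc7a5.

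Across the 30 libraries, the transcripts most like each carrier by Pearson's r of log2(CPM + 0.5) were found over all tested genes, as a description in which the points share library, depth and age. Slc38a5 was most like the calcium-regulated Carhsp1 (r = 0.85), the calponin gene Cnn3 (r = 0.84) and Ldlrad4 (r = 0.82). Slc6a6 was most like the pseudokinase gene Peak1 (r = 0.88), Zer1 (r = 0.88) and Thrap3 (r = 0.87). Slc7a10 was most like the phosphatase inhibitor gene Ppp1r1b (r = 0.91), Drc7 (r = 0.88) and the lactate dehydrogenase gene Ldhb (r = 0.87). Slc3a2 was most like the sodium pump subunit gene Atp1b3 (r = 0.89), Gmpr (r = 0.89) and Saraf (r = 0.88). For Slc7a3 these were Fam129a (r = 0.85), Gnb4 (r = 0.81) and the potassium channel gene Kcnq1 (r = 0.79). For Slc7a5 they were Map7d1 (r = 0.83), the endothelial receptor gene Tie1 (r = 0.81) and Gatad2a (r = 0.80). For Slc7a1 they were Mlec (r = 0.81), Ppp1r16b (r = 0.79) and Gramd1a (r = 0.75). For Slc38a3 they were Dhx16 (r = 0.77) and the transcription factor gene Foxo1 (r = 0.71). For Slc6a8 they were Mbd2 (r = 0.69), Acvr1 (r = 0.67) and Setd5 (r = 0.67).

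Beyond the 9, a list of 38 other amino acid transporters had 34 genes tested, of which 2 rose and 4 fell, with a median slope of -0.22 log2. The exchanger for neutral amino acids Slc1a5 rose by 0.59 ± 0.14 log2 (adjusted p = 0.00583), averaging 38.6 ± 2.84 CPM at 24 months and 28.3 ± 2.06 CPM at 2 months (SD, n = 6). Slc38a6, of the same family as the glutamine carriers, rose by 0.91 ± 0.20 log2 (adjusted p = 0.00337), with 6.85 ± 0.723 CPM at 24 months and 3.36 ± 0.537 CPM at 2 months. Slc7a8 (LAT2), a further partner of Slc3a2, had a slope of -1.48 ± 0.44 log2 (adjusted p = 0.0262), with 3.62 ± 1.13 CPM at 24 months and 11.8 ± 5.54 CPM at 2 months. The facilitative carrier of large neutral amino acids Slc43a2 (-0.61 ± 0.20 log2) and the glial glutamate transporter Slc1a3 (-0.80 ± 0.24 log2) fell as well. Slc1a3 is itself one of the astrocyte markers.

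**Figure D4:**
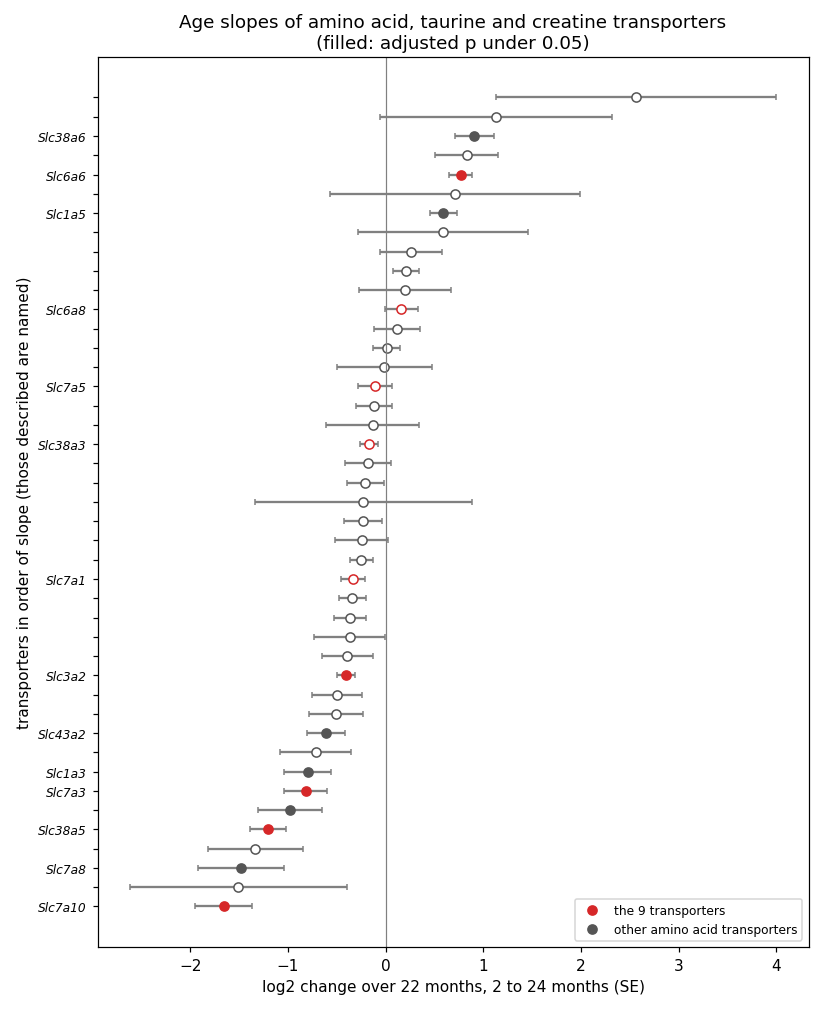
Fitted log2 change over 22 months with its SE for the 9 transporters (red) and the 34 other amino acid transporters tested (grey), in order of size, with the described ones named, filled where the adjusted p was under 0.05. Slc6a6 (0.77 log2), Slc38a6 (0.91 log2) and Slc1a5 (0.59 log2) are filled to the right of 0, and Slc7a10 (-1.66 log2) is the lowest.

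Genes that make, use or sense the same substrates were read by their slopes, beside the 10.9% of all genes that passed. Of 4 taurine synthesis genes, Fmo1, a monooxygenase that can form taurine from hypotaurine, rose by 0.60 ± 0.11 log2 (adjusted p = 5.64e-04), with 221 ± 27.3 CPM at 24 months and 127.5 ± 17.9 CPM at 2 months. None of 6 osmotic response genes passed in edgeR or DESeq2, and 1 had an unadjusted p under 0.05, the tonicity factor gene Nfat5 (0.53 ± 0.21 log2, adjusted p = 0.102). None of the 4 tested genes of 6 for creatine synthesis and creatine kinases passed in edgeR or DESeq2 or had an unadjusted p under 0.05, such as Gatm (-0.13 ± 0.14 log2, adjusted p = 0.583). Of 7 glutamine and glutamate genes the asparagine synthetase gene Asns fell (-0.64 ± 0.16 log2, adjusted p = 0.0102) and none rose. Of 9 genes of arginine metabolism and nitric oxide Ddah2, which breaks down a nitric oxide synthase inhibitor, fell (-0.62 ± 0.16 log2, adjusted p = 0.0107) and none rose by the slope. Ass1, the argininosuccinate synthase gene of that list, was higher at 24 months (5.02 ± 0.554 CPM) than at 2 months (2.36 ± 0.627 CPM), by 1.09 log2 (adjusted p = 0.0104). Of 21 tested genes of amino acid sensing by mTORC1, the Rag GTPase gene Rragb rose by 1.14 ± 0.22 log2 (adjusted p = 7.26e-04) and the leucine sensor relative Sesn1 fell (-0.40 ± 0.10 log2, adjusted p = 0.00896). Of 18 genes of Atf4 and the amino acid response, the transcription factor gene Cebpb rose by 0.61 ± 0.15 log2 (adjusted p = 0.00673). Asns, the serine synthesis gene Phgdh (-0.98 ± 0.30 log2) and the mitochondrial folate enzyme gene Shmt2 (-0.65 ± 0.14 log2) of that list fell, and the slope of Atf4 was -0.22 ± 0.19 log2 (adjusted p = 0.489). The median slope was 0.13 log2 for taurine synthesis, 0.01 for the osmotic response, -0.25 for creatine, -0.08 for glutamine and glutamate, 0.07 for arginine, -0.21 for mTORC1 sensing and -0.11 for Atf4, against 0.03 log2 over all genes.

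Markers of vessel segments and of other cells, read by their slopes, moved in these libraries too. Of 8 venous markers 4 rose (Vwf, Icam1, Ackr1 and Selp), of 8 pericyte markers 4 rose (Rgs5, Kcnj8, Abcc9 and Notch3), of 6 smooth muscle markers 2 rose (Mylk and Des) and of 9 arterial markers 2 rose (Stmn2 and Bmx). Of 8 capillary markers Car4, Mfsd2a and Ivns1abp fell. Of 12 endothelial markers Erg rose and Cldn5 fell. The 5 astrocyte markers that fell were Aldoc, Slc1a3, Gjb6, Gpr37l1 and Sox9, and Fgfr3 rose. The 4 choroid plexus and ependyma markers that fell were Kcne2, Folr1, Kl and Clic6. No slope passed in edgeR or DESeq2 on the lists of neurons, oligodendrocytes, oligodendrocyte precursors, microglia, fibroblasts and erythroid cells, where 0, 0, 1, 2, 1 and 0 genes had an unadjusted p under 0.05 in edgeR. At 24 months against 2 months the microglial P2ry12 was lower (-1.22 log2, adjusted p = 0.0389). The slopes of Slc38a5, Slc6a6, Slc7a10 and Slc3a2 passed with each of the astrocyte, endothelial, venous, capillary, pericyte and choroid plexus scores as a covariate, and that of Slc7a3 did not with the venous, capillary or pericyte score. Beyond these fits, the part of other cells and vessel segments in the results was not tested.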

How the data were processed

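RNA was measured in 30 libraries of mouse brain endothelial cells. The kits named in the labels' protocols, SMART-Seq v4 for full-length cDNA and Nextera XT for tagmentation, keep no strand and add no molecular identifiers, so that PCR copies were counted. Named in the submitters' processing notes are STAR 2.5.2b, HTSeq, FastQC 0.11.4 and MultiQC, with GRCm38 and mm10 as builds. The authors deposited a table of read counts per library, whole numbers that were not normalized, with a column that ignores strand and a column for each strand. The tests used the first of these, the forward strand holding 49.7 to 50.0% of stranded counts. Library sizes and tests leave out 4 lines without a gene, with 2.51 to 6.26% of reads unmapped, 8.64 to 13.3% mapping to more than 1 place, 3.82 to 13.1% outside genes and 3.61 to 4.21% over more than 1 gene. Near-identical copies of a gene lose the reads they share.

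Of 48795 gene identifiers, 48349 matched the gene name table without their version, and 48435 matched the GENCODE annotation of GRCm38 that gave exon lengths and coordinates (1-based). Which release the submitters counted with is not stated in the sources used here. The sex labels matched sex-linked transcripts in all 30 libraries. In each of 75 replicate pairs the counts differed beyond sampling noise (chi-square over its degrees of freedom between 16.0 and 197). The tests ran in edgeR 4.0.16 under R 4.3.3 (TMM, filterByExpr by age with a minimum count of 10 and a minimum total of 15, robust quasi-likelihood F test), on 16844 genes that held 99.9% or more of every library's counts. The slope was fitted on age in months with sex as a covariate, contrasts took age as a factor with sex, and 3 further polynomial terms of age were tested jointly for a departure from the line. SEs follow from the F statistics, and 95% intervals from the t distribution with 27 degrees of freedom. Alternatives used DESeq2 1.42.0, other scalings, filters, covariates and subsets of libraries. The test of the slope was checked on simulated counts.

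The 9 genes and all lists were chosen with earlier results of these data known. Named are the 9 genes, list genes whose slope passed (up to 6 per list in order of p), the 3 genes most like each by Pearson's r of log2(CPM + 0.5), and other list genes only as examples of their list, chosen after their values were seen. Promoters came from a RefSeq table. No protein sequence was used here. A gene that fell on the transporter list and a gene like Slc38a3 are not reported here.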

Additional observations from a re-analysis of the deposited data

Results flagged for a closer look

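In 45 sets of 6 libraries (9 genes at 5 ages), 5 had a highest or lowest library separated from the next by more than 0.625 of the range of the set, where chance gives about 1 set in 20. At 2 months, male replicate 3 was high in Slc7a5 (3764 CPM, against 1950.4 to 2308 CPM in the other 5) and in the creatine transporter Slc6a8 (16.9 CPM, against 7.67 to 10.6 CPM). Male replicate 1 of that age was low in Slc3a2 (1473 CPM, against 1826 to 2015 CPM). For Slc7a3, male replicate 1 was low at 12 months (6.70 CPM, against 15.7 to 18.7 CPM), and female replicate 4 was high at 24 months (21.9 CPM, against 12.1 to 14.7 CPM).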

How the results depend on the processing

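No slope that passed turned its sign under the 20 other settings and the 30 fits that each left out 1 library, and Slc6a6 passed in all of them. The 5 slopes that passed did so in each of those 30 fits, and that of Slc7a1 lay between -0.38 and -0.26 log2 there, passing in 3. Slc7a1 also passed with DESeq2 (-0.35 log2), reads outside genes (-0.65 log2) or the share of longer genes (-0.50 log2) as a covariate, and without the 18-month libraries (-0.44 log2). Over all other settings it ran from -0.65 to -0.03 log2 (adjusted p up to 0.901), nearest 0 with capillary markers as a covariate. Slc38a3 passed with endothelial markers as a covariate (-0.25 log2).

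Calls were lost as follows, and the cause was not tested. With reads outside genes as a covariate, Slc3a2 (-0.17 log2) and Slc7a3 (-0.94 log2) no longer passed. Without the 2-month libraries Slc38a5 (-0.71 log2), Slc3a2 (-0.39 log2) and Slc7a3 (-0.27 log2) did not, leaving 2 of the 9, and without the 24-month libraries Slc7a3 (-0.95 log2) did not. In 15 male libraries 1 of the 9 passed, without Slc38a5 (-0.94 log2), Slc3a2 (-0.20 log2), Slc7a10 (-1.41 log2) and Slc7a3 (-1.16 log2), and in 15 female ones Slc7a3 (-0.47 log2) was lost. Slc7a3 was also lost with venous (-0.79 log2), capillary (-0.28 log2) or pericyte (-0.79 log2) markers as a covariate.

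Over all genes, 1843 slopes passed, against 402 with reads outside genes, 450 with venous, 828 with choroid plexus and ependyma and 4613 with capillary markers as a covariate, 940 without the 2-month and 726 without the 18-month libraries, and 193 in males and 623 in females alone. The venous, capillary, pericyte, choroid plexus and longer-gene settings were chosen after seeing the data. At 24 against 2 months, Slc3a2 was also lost with library totals alone (-0.28 log2), no filter (-0.35 log2) and reads outside genes (-0.13 log2). No paired analysis was possible because the labels number no replicates across ages and each age has its own animals. Counting error weighs most on Slc7a10, Slc6a8 and Slc7a3, whose lowest counts per library were 72, 146 and 188.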
